A study of Mus musculus with 2 samples.

Results

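The Toll-like receptor family was read from 2 one-colour microarrays of mouse spleen, 1 hybridised with RNA of wild-type males and 1 with RNA of males labelled Loxl3 knockout. Its members were all probes whose RefSeq accession maps to Tlr1 to Tlr9 or to Tlr13, which gave 11 probes for 10 genes of the 20655 genes the arrays name. A probe had to be well above background, by the scanner software's own call, to count as measured. Of the 10 genes, 8 met this on both arrays, and Tlr5 and Tlr8 did not meet it on either. Over the whole array 13716 genes were measured, 13034 of them on both arrays.

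The animals were untreated and healthy. They are described by genotype alone (Loxl3+/+ or Loxl3-/-), and strain, age, the deleted part of Loxl3 and whether spleens were pooled are not given in the sources used here. Loxl3 encodes a lysyl oxidase, an enzyme family that crosslinks collagen and elastin. With 1 array a group there is no replicate and no test, so every value describes these 2 arrays, and their number limits the precision. The single Loxl3 probe gave a signal of 117 in the wild-type sample and 125 in the other, a scaled log2 difference of −0.43 ± 0.29, so it did not clearly check the label, which is why the word labelled is kept here.

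Toll-like receptors are membrane sensors of microbial molecules. Those at the cell surface bind lipids, lipopeptides and flagellin, while others sit in endosomes, where they meet RNA or DNA from taken-up microbes. Ligand binding brings their intracellular TIR domains together with the adaptors MyD88 or TRIF, and kinases then activate NF-κB and interferon regulatory factors. In the spleen, B cells, macrophages, monocytes and dendritic cells are known to carry different sets of these receptors.

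Signals are given as the software's background-corrected intensity. The knockout-labelled sample was brighter as a whole, with a 75th percentile over all probes of 1400 against 974. Log2 signals were therefore taken relative to each array's 75th percentile, which moved the samples by 0.52 against each other, before differences were taken as knockout-labelled minus wild type. An unchanged gene thus has a signal about 0.52 higher on the log2 scale in the knockout-labelled sample. Unless an SD is named, the error after ± comes from the scanner software's error of each spot and leaves out all variation between animals. Since a spleen sample is a mixture, fewer cells of a type and less RNA per cell cannot be told apart.

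No Toll-like receptor gene differed by 2-fold in either direction (0 of 8 measured), against 4.83% of all measured genes. The members' median log2 difference was 0.01 and that of all genes −0.09. The differences fell into 6 genes between −0.09 and 0.19, each within its software error, and 2 genes at −0.62 and −0.68. Those 2 genes were Tlr6 and Tlr13. They were the only members past 2 software errors, a limit that 17.3% of all genes passed on the lower side and 9.97% on the higher side (27.3% together), so 2 of 8 lies near this background.

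**Figure D1:**
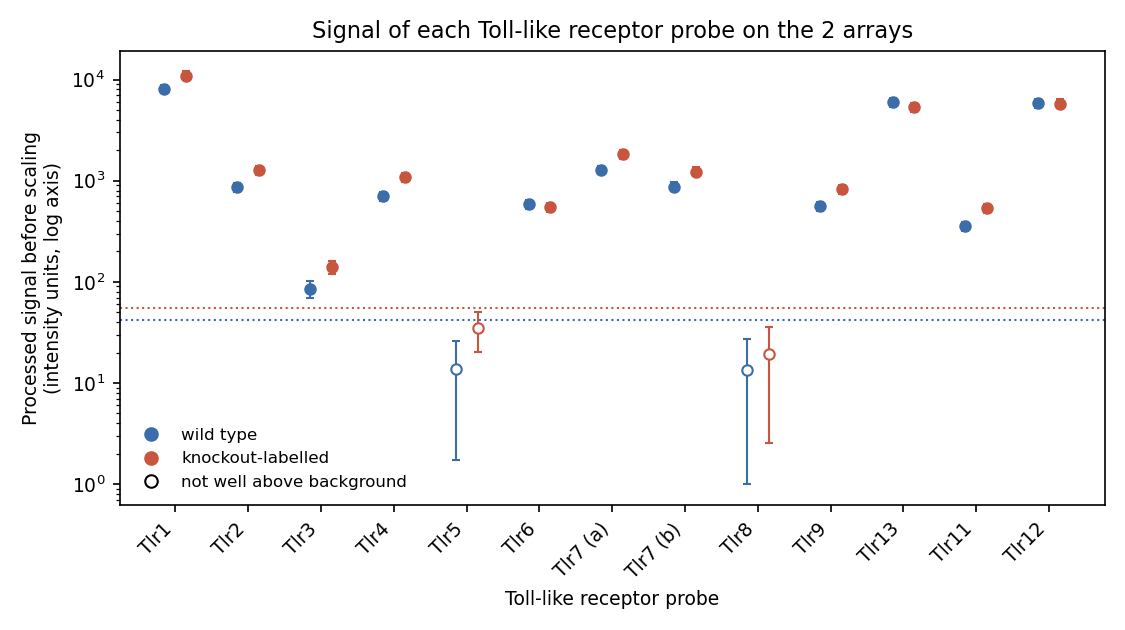
Processed signal of each Toll-like receptor probe (log axis, intensity units, before scaling) on the wild-type and knockout-labelled samples, with the software's error as bars (for Tlr8 in the wild-type sample the lower bar is cut at 1). Filled points are well above background, open points are not, and dotted lines mark the lowest signal called well above background on each array; Tlr7 has 2 probes, and only Tlr6, Tlr12 and Tlr13 are not brighter in the knockout-labelled sample.

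Tlr13 had the lowest value of the family. It is an endosomal receptor of bacterial ribosomal RNA, found in mice but not in people. Its probe gave 5990 in the wild-type sample and 5363 in the knockout-labelled sample, lower there even before any scaling, as for Tlr6 alone among the other members measured. The scaled difference was −0.68 ± 0.20, a level 0.623 times that of the wild type. Of all 13716 genes, 6.59% had a value as low or lower. Genes within 2-fold of its mean signal had a median of −0.20, and 5.26% of those 3135 genes were as low or lower. Under 10 other ways of processing the arrays its value ran from −0.78 to −0.49, the smaller size coming when the trend of the difference on signal was removed.

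Tlr6 was the other lower member. It pairs with Tlr2 at the cell surface to bind lipopeptides with a pair of acyl chains. Its signal was 589 in the wild-type sample and 552 in the knockout-labelled sample. After scaling this was −0.62 ± 0.21, or 0.652 times the wild-type level. Genes within 2-fold of its mean signal had a median of 0.02, and 6.86% of these 3397 genes were as low or lower. Its value stayed between −0.71 and −0.47 under the same 10 alternatives. Both genes rest on 1 spot per array, and no other probe of either was on the arrays used here to check them.

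The sequences just before the starts of these 2 genes are shown because they had the lowest values of the family. The windows are the 250 bases before the start in the RefSeq table of GRCm38.p6, read 5′ to 3′ on the gene's strand, with 2 starts for Tlr6. Capitals mark letters of motifs searched on both strands: GAGGAA (the core of sites for PU.1, a transcription factor of myeloid and B cells), GAAANNGAA (an interferon response type element) and TGANTCA (an AP-1 type element).
Tlr13, chrX:106143025-106143274, plus strand: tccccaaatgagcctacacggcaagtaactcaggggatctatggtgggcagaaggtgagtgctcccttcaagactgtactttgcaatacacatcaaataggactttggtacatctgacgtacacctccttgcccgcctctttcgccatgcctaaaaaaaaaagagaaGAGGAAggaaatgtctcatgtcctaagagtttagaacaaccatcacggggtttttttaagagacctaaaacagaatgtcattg
Tlr6, chr5:64959167-64959416, minus strand: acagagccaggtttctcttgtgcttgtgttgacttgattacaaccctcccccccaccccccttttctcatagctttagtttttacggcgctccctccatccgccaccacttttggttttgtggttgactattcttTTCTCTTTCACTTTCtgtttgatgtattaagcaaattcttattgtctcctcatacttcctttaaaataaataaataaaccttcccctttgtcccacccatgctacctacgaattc
Tlr6, chr5:64960049-64960298, minus strand: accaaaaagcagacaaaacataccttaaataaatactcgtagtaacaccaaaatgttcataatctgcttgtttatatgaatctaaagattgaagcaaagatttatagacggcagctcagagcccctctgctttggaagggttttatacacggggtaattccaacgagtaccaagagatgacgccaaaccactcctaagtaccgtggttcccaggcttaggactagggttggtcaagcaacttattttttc

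The Tlr13 window held the PU.1 core once, on the gene's strand, 83 to 78 bases before the start. The same letters were in 4 of 10 windows of the 8 members in the table (Tlr1, Tlr8, Tlr9 and Tlr13) and in 23.3% of all 32851 windows. In 1 of the Tlr6 windows 2 overlapping matches of the interferon response type element lay on the opposite strand, within TTCTCTTTCACTTTC, 115 to 101 bases before the start. That element was in 2 of the 10 member windows (Tlr6 and Tlr8) and in 7.13% of all windows. The AP-1 type letters were in the window of Tlr9 and in 6.75% of all windows. The windows of Tlr6 and Tlr13 thus shared none of these motifs. These motifs were settled after matches of a first set had been seen: the interferon response type element was shortened by a letter, which raised its number of matches, and an NF-κB type motif, which had matched windows of Tlr2 and Tlr3, was dropped. Each match is a description of letters, not of binding.

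**Figure D2:**
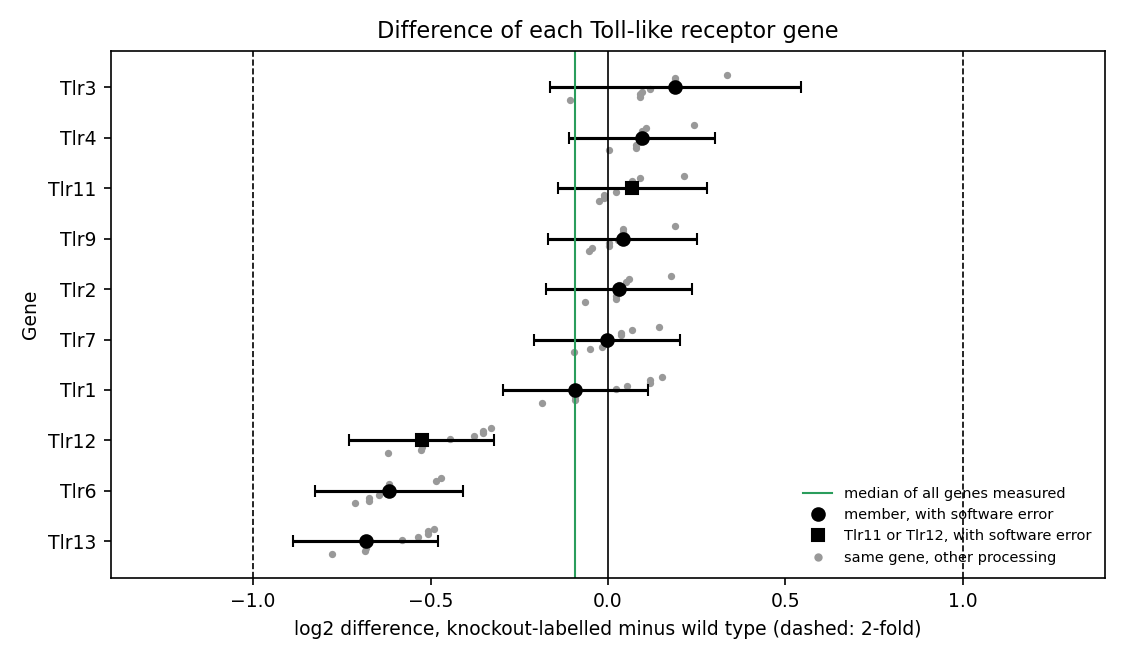
Log2 difference of each Toll-like receptor gene measured (x axis, knockout-labelled minus wild type), with the software's error as bars, for 8 members (circles) and for Tlr11 and Tlr12 (squares). Grey points give the same gene under 10 other ways of processing, dashed lines mark 2-fold and the green line the median of all genes (−0.09); Tlr6, Tlr12 and Tlr13 lie below 0 in every setting, and the others lie around 0.

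The remaining surface receptors that were measured had differences close to 0. Tlr1, which pairs with Tlr2 for lipopeptides with an added acyl chain and is the neighbour of Tlr6 in the gene order, had signals of 8130 and 10961 on the wild-type and knockout-labelled samples. Its difference was −0.09 ± 0.20, which turned positive under 5 of 10 alternatives (−0.19 to 0.15). Tlr4, the receptor of bacterial lipopolysaccharide, had 701 and 1077, a difference of 0.10 ± 0.21, with alternatives from 0.00 to 0.24. The differences of the neighbours Tlr1 and Tlr6 were 0.53 ± 0.29 apart on the log2 scale, the error again being the software's, so their values lay under 2 errors from each other. The gap ran from 0.51 to 0.80 under the alternatives. The 2 genes encode similar proteins, and whether their probes share signal was not tested.

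Tlr2, the common partner of Tlr1 and Tlr6, was the member with the most spots, its probe being printed 10 times on each array. The wild-type spots ran from 747 to 1055 with a median of 848, and the knockout-labelled spots from 978 to 1520 with a median of 1244. After scaling, the spots averaged −0.18 ± 0.16 (SD, n = 10 spots) and −0.15 ± 0.20 (SD, n = 10 spots) in units of log2 signal over the 75th percentile, so the arrays overlapped almost wholly. Taken position by position, the difference averaged 0.03 ± 0.21 (SD over 10 positions). It was above 0 at 9 positions and below at 1, where it was −0.55. Without that position the mean was 0.09 ± 0.07, and the highest position gave 0.18. Over 269 probes printed several times, the median SD of the difference was 0.11, and 85.1% had an SD no larger than that of Tlr2. These spots repeat the print, not the animal.

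**Figure D3:**
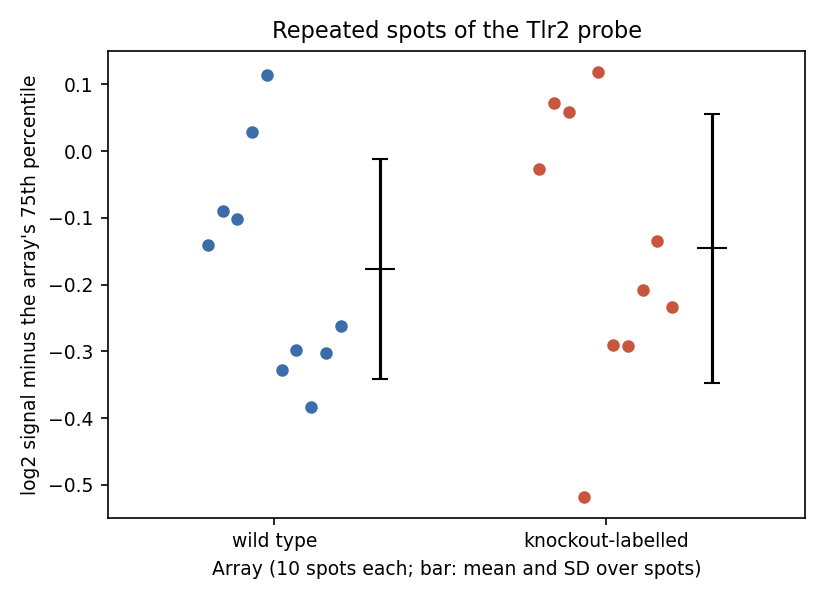
Scaled log2 signal (log2 signal minus the array's 75th percentile) of each of the 10 spots of the Tlr2 probe on the wild-type and knockout-labelled samples. Horizontal bars give the mean and SD over spots (−0.18 ± 0.16 and −0.15 ± 0.20); the spots of the arrays overlap, apart from 1 low spot in the knockout-labelled sample.

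Tlr5, the receptor of flagellin, had a signal of 13.7 ± 12.0 in the wild-type sample and 35.1 ± 15.1 in the knockout-labelled sample. Neither was well above background. The lowest signals called so were 41.9 and 55.2, in the same order, and no fold is given.

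Among the endosomal receptors, all but Tlr13 and the unmeasured Tlr8 lay within their software errors of 0. Tlr7, which binds single-stranded RNA, had 2 probes. The brighter gave 1283 and 1840 and a difference of 0.00 ± 0.21, the other 876 and 1233 and a difference of −0.03 ± 0.20. The probes thus gave the same value to within 0.03. Tlr9, the receptor of unmethylated CpG DNA, had 557 and 824 and a difference of 0.04 ± 0.21. Tlr3, which binds double-stranded RNA, was the dimmest measured member, with 85.5 ± 16.1 and 140 ± 21.9. Its difference of 0.19 ± 0.35 had the widest error of those measured, and it was −0.11 with another background correction (normexp). Tlr8, next to Tlr7 in the gene order, had 13.6 and 19.1, not well above background on either array.

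Mice have a pair of further Toll-like receptors outside the listed members, Tlr11 and Tlr12, endosomal receptors of the parasite protein profilin. Tlr12 had nearly the same signal on both arrays before scaling, 5806 and 5799, and so a scaled difference of −0.52 ± 0.20, past 2 software errors. Genes within 2-fold of its signal had a median of −0.20, and its value was −0.33 with the trend removed. Tlr11 was at 0.07 ± 0.21 (357 and 538). Tlr11, Tlr12 and Tlr13 are related in sequence, and the part of shared probe signal was not tested.

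The machinery around the receptors was described from lists of genes by role. Co-receptors were split. Ly96, the MD-2 subunit that holds lipopolysaccharide on Tlr4, and Cd14, which hands it over, were at −0.04 and 0.01, as close to 0 as Tlr4 itself. Cd36, a scavenger receptor that presents ligands to Tlr2 with Tlr6, was higher by 0.70 ± 0.20 (1692 and 3949). Cd180, a Toll-like surface protein of B cells, was higher by 0.58 ± 0.23 (148 and 318). Its partner Ly86, known as MD-1, was at −0.38 ± 0.20, so the pair differed in sign under every setting tried. Lbp was not well above background. Of 5 measured co-receptors, 2 passed 2 software errors on the higher side (9.97% of all genes), 0 on the lower side (17.3%) and 0 reached 2-fold (4.83%).

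Genes for folding, transport and cleavage of endosomal receptors were below 0 in 11 of 14 cases, against 59.2% of all genes, with a median of −0.23. None reached 2-fold, against 4.83% of all genes. Unc93b1, the escort of the nucleic acid receptors to endosomes, was at −0.04, and Cnpy3, a folding partner of the receptors, at 0.03. Hsp90b1 (gp96), the chaperone of most of the family, was at −0.52 ± 0.20. Slc15a4, a lysosomal transporter required for signalling by Tlr7 and Tlr9, was the lowest at −0.65 ± 0.20. Ap3b1 (0.05) and Cnpy4 (−0.11) were near 0, and Rab7b, a late endosomal GTPase, was at −0.30. Among proteases that trim the receptors in endosomes, Ctsk was at −0.54, Ctss at −0.40, Ctsl at −0.29, Lgmn at −0.24 and Ctsb at −0.10. Of the nucleases that degrade their ligands, Pld4 was higher by 0.61 ± 0.21 (741 and 1627) while Pld3 was at −0.22. Many of these probes are bright, and bright genes as a whole lay below 0, as given for the genes around Tlr13. The list's median was 0.00 with quantile normalization and 0.01 with the trend on signal removed, where Hsp90b1 reached −0.04 at its closest to 0 and Slc15a4 −0.32.

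Adaptors with a TIR domain carry the signal from the receptors. Myd88, shared by all but Tlr3, was at −0.03 ± 0.20 (4858 and 6827), and Ticam1 (TRIF), the adaptor of Tlr3 and Tlr4, at 0.10 ± 0.23. Tirap, which brings MyD88 to surface receptors, was at 0.26 ± 0.21. Pik3ap1 (BCAP), a link to phosphoinositide kinase signalling in B cells, was at 0.54 ± 0.31 and came down to 0.14 with normexp. Ticam2 and Sarm1 were not well above background. None of the 4 measured adaptors passed 2 software errors, against 27.3% of all genes.

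Kinases and ubiquitin ligases below the adaptors were spread on both sides, 10 of 17 above 0 and 7 below, with a median of 0.07. The highest were Traf6, the ubiquitin ligase that relays MyD88 signals, at 0.64 ± 0.22, and Tab2 at 0.51 ± 0.20, a subunit of the TAK1 kinase complex. The lowest were Tab3, a relative of Tab2, at −0.51 ± 0.21, and Ube2n, the ubiquitin-conjugating enzyme that works with Traf6, at −0.48 by the brighter probe and 0.40 by the second probe. Irak1 (−0.21) and Map3k7 (−0.31), also counted below 0 by their brightest probes, were at 0.75 and 0.84 by another probe. Of 17 genes, 4 were past 2 software errors on the higher side and 2 on the lower side (9.97% and 17.3% of all genes), and 0 reached 2-fold (4.83%). Transcription factors at the end of the pathway had a median of −0.13, which became 0.03 with the trend on signal removed. Of 10 measured, 2 were above 0 and 8 below, against 59.2% of all genes below 0. Irf8 was lowest at −0.46 ± 0.20, but at −0.07 with the trend removed, within its error. Jun was next at −0.31, and Nfkb1 and Irf7 were highest at 0.39 and 0.06, the last with a sign that turned under 5 alternatives. Rel was not well above background.

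**Figure D4:**
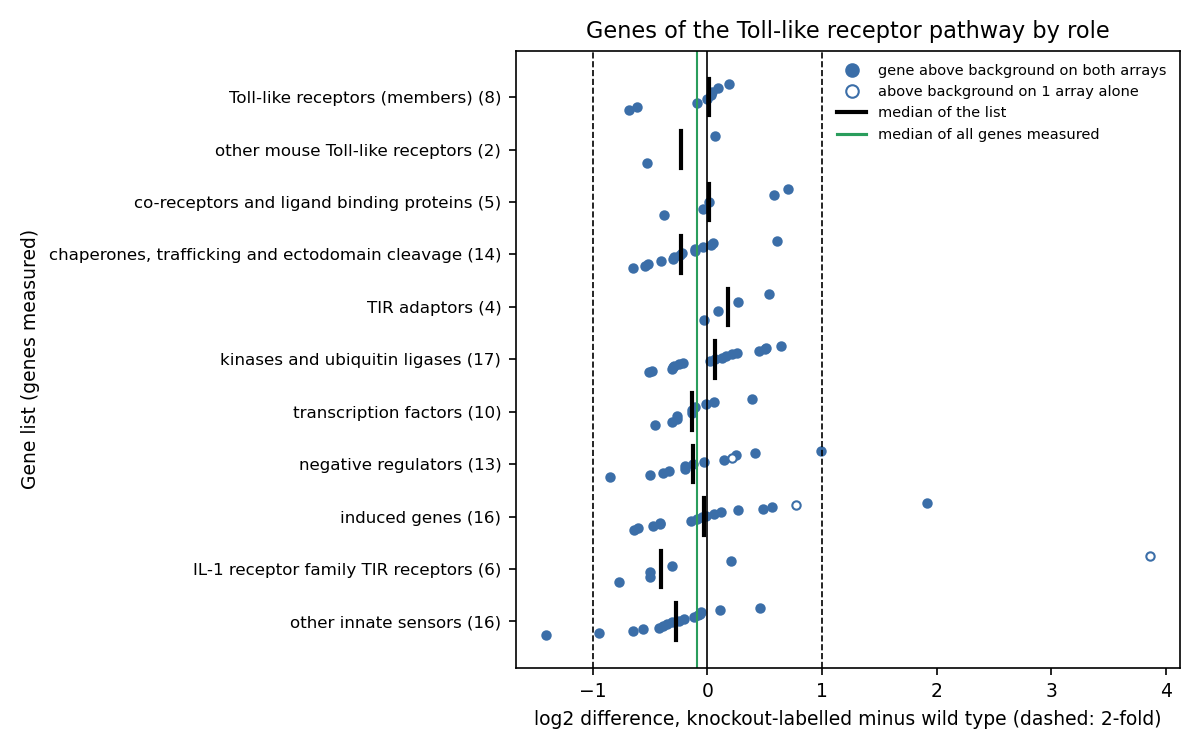
Log2 difference of each measured gene (x axis, knockout-labelled minus wild type) in 11 lists of the Toll-like receptor pathway and other innate sensors, 1 row a list. Black bars are list medians, the green line is the median of all genes, dashed lines mark 2-fold and open points were above background on 1 array alone; the genes beyond 2-fold are Icam1, Il1rl2 and Naip5.

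Negative regulators of the pathway lay on both sides of 0. Irak3 (IRAK-M), a kinase-like protein that stops signalling below the receptors, was higher by 0.99 ± 0.24, with signals of 175 and 498. This is just inside 2-fold, and alternatives ran from 0.57 to 1.14. Socs1, an inhibitor of cytokine and receptor signalling, was at −0.85 ± 0.20, with 2855 and 2273. Rnf216, a ubiquitin ligase that acts on the receptors, was at 0.42, and Il1rl1 at −0.50. The list of 13 had 5 genes above 0, 8 below and a median of −0.12, which became 0.09 with the trend on signal removed. Tollip was at −0.02 by its brightest probe, while another of its probes was at −1.155.

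Genes that the receptors are known to induce showed no common direction, with 7 of 16 measured genes above 0, 9 below and a median of −0.03. Of the 16, 1 reached 2-fold in either direction, against 4.83% of all genes. It was Icam1, an adhesion molecule gene, at 1.92 ± 0.24, with signals of 148 and 804. Tnf was at 0.57 ± 0.23 (168 and 358). Il1b was at −0.64 ± 0.20 (3910 and 3617) and the chemokine gene Ccl4 at −0.60 ± 0.20. Il6, Il10, Il23a, Cxcl1, Cxcl2, Ptgs2, Ifnb1 and Saa3 were not well above background on either array. Past 2 software errors were 2 genes on the higher and 5 on the lower side (Il1b, Ccl4, Ccl5, Cd80 and Cd86), against 9.97% and 17.3% of all genes. Of these, Cd80 was at −0.42 by the brighter probe and 0.65 by the second probe. Il1b alone was on the lower side with the trend on signal removed, with quantile normalization or in the authors' deposited table, and Ccl4 was at −0.24 with the trend removed.

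The signalling receptors of the interleukin-1 family share the TIR domain and MyD88. Il18r1, the interleukin-18 receptor, was at −0.77 ± 0.20. Il1r2, a decoy receptor of the same family that lacks this domain, was at −0.50. Il1rl1, also counted among the negative regulators, was at −0.50, and Il1r1 at 0.21. Il1rl2, the interleukin-36 receptor, passed the background call in the knockout-labelled sample alone (9.89 and 206) and was at least 3.42-fold higher there. This bound sets its signal against the lowest one called well above background in the wild-type sample.

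Of the innate sensors of other families 14 of 16 were below 0 (59.2% of all genes were), with a median of −0.28 that stayed between −0.37 and −0.13 under the alternatives. Among those below 0, Ddx58 (−0.05) and Ifih1 (−0.31) were at 0.23 and 0.47 by a second probe. The signs of Ddx58, Nod1 and Clec4n turned under 6, 5 and 4 of the 10 alternatives. Of the 16 sensors, 1 reached 2-fold in either direction, against 4.83% of all genes. It was Naip5, a cytosolic sensor of flagellin, at −1.41 ± 0.20 (37333 and 20232). Naip2, of the same family, was at −0.56 ± 0.21. Genes of that family are near copies of each other, so their probes may share signal. Zbp1, a sensor of left-handed nucleic acids, was at −0.95 and −0.89 with its 2 probes. The DNA sensor genes Cgas and Aim2 were at −0.65 and 0.46, and the RNA sensor adaptor gene Mavs at 0.11.

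Markers of cells that carry Toll-like receptors were compared as summed signals in units of each array's 75th percentile. B cell markers, 8 of 8 above background on both arrays, summed to 166 in the wild-type sample and 134 in the knockout-labelled sample, with Cd79b (−0.39), Ms4a1 (−0.28) and Cd22 (0.68) on different sides of 0. Macrophage markers, 7 of 7 above background, summed to 103 and 94.0, of which Csf1r made 54.9 and 50.4. Csf1r was at −0.12 by the brighter probe, with a sign that turned under 6 alternatives, and 0.88 by another. The median difference of the list was 0.05, above 0 in 9 of 10 alternatives, with 4 of 7 genes above 0. Monocyte markers summed to 29.4 and 21.7, and 6 of 7 were below 0 (59.2% of all genes were), with F13a1 lowest at −0.87. Treml4 lay above 0, at 0.85 ± 0.22. The median of the list was −0.37, and −0.12 with the trend on signal removed. Cx3cr1 (−0.58) and Spn (−0.37) were counted below 0 by the brighter probe and were at 0.02 and 0.21 by the second probe. Plasmacytoid dendritic cell markers summed to 75.3 and 53.7, with 4 of 6 below 0 (59.2% of all genes were). Siglech made most of both sums. It was at −0.58 by the brighter probe (−0.13 at its closest to 0 under the alternatives) and 0.18 by the second probe. Of the 6, 2 were at least 2-fold higher (2.57% of all genes were), Cox6a2 at 1.77 and Klk1 at 1.15. At least 2-fold lower were 0 of 6 (2.26% of all genes were). Conventional dendritic cell markers summed to 40.6 and 38.5, but 5 of 8 were above 0 and the median difference was 0.19, above 0 in all 10 alternatives. The brightest of them were Sirpa at −0.35, Itgax at 0.92 and Batf3 at 0.18. Of the markers of their cross-presenting subset, Xcr1 passed the background call in the wild-type sample alone (272 and 54.4). With scaling on the 75th percentile Xcr1 was at least 7.08-fold lower in the knockout-labelled sample. Its difference ran from −2.94 to −1.98 under 9 alternatives. Batf3 passed the call on both arrays, as did Clec9a at −0.19. The Toll-like receptor members themselves summed to 18.7 and 15.7, or 12.5 and 11.9 without Tlr13, while their median difference was 0.01 with 4 of 8 above 0. The part of these cell types in the values of Tlr13 and Tlr6 was not tested.

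Signals of 3 cell types differed far more between the arrays. Neutrophil and precursor markers summed to 205 and 60.0, with 12 of 12 below 0 and 10 at least 2-fold lower (2.26% of all genes were). Megakaryocyte and platelet markers summed to 58.1 and 19.5, with 8 of 8 below 0 and 6 at least 2-fold lower. Of all genes, 59.2% were below 0 and 2.26% at least 2-fold lower. Exocrine pancreas markers summed to 7.38 and 119, and 12 of 12 were at least 2-fold higher (2.57% of all genes were). Neutrophils and platelets are known to carry several Toll-like receptors, among them Tlr2, Tlr4 and Tlr6. Of these, Tlr2 and Tlr4 were within 0.10 of 0 on the same arrays and Tlr6 was at −0.62. The part of these cells and of pancreas RNA in the receptor values was not tested.

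**Figure D5:**
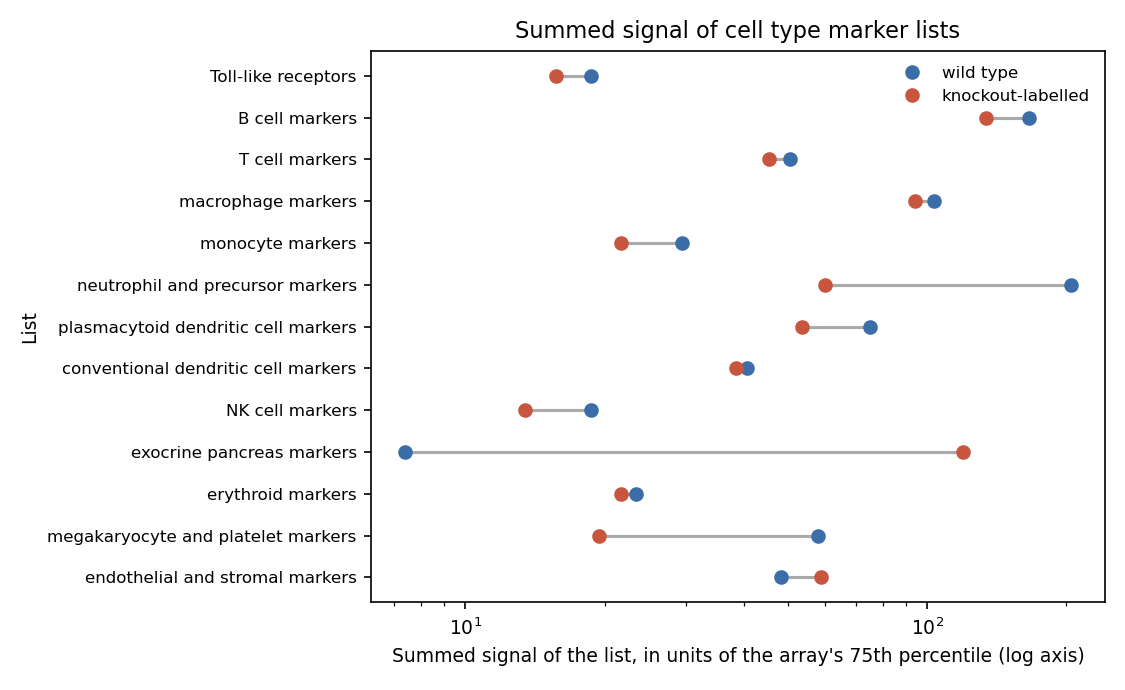
Summed signal of the measured genes of each list, in units of the array's 75th percentile (log axis), on the wild-type and knockout-labelled samples. Only the points within a row can be compared, since rows hold different probes; neutrophil, platelet and exocrine pancreas lists lie far apart, and the Toll-like receptors sum to 18.7 and 15.7.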

How the data were processed

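Each deposited scanner file gives an intensity per spot on a linear scale, made with Feature Extraction 11.0.1.1, per the file headers. These give the same protocol and scan for both arrays. The barcode in the headers differed between the arrays, so barcode and genotype cannot be told apart. The authors' deposited table of values is log2 data with a median of 6.71 in both columns. Of 39420 probes, 99.9% had a difference within 0.1 of that from quantile-normalized scanner signals, and 3 were over 1 apart. Its processing steps are not given in the sources used here.

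Control spots and outlier-flagged spots (110 and 132) were left out, and no spot was saturated. Log2 processed signals of a probe's spots were averaged, and a probe counted as above background where at least 0.5 of its spots did. Accessions were matched without versions to RefSeq names of GRCm38.p6, which named 27226 probes. A gene took its brightest probe above background on at least 1 array. The calculation was tested on simulated arrays. No p-value was computed.

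The members, the 23 gene lists and the rule for named genes (all members, Tlr11, Tlr12 and Loxl3, in pathway lists genes at 2-fold and the 2 largest differences each way, all measured co-receptors, chaperones and adaptors, in marker lists up to 3 genes, brightest first) were chosen with earlier results of these data known. Marker genes that are not among the brightest (Cd22, F13a1, Treml4, Cox6a2, Klk1, Xcr1, Clec9a), Ccl5, Cd80, Cd86, Naip2 and Cgas were named after their values were seen. The same holds for Irak1, Map3k7, Tollip, Ddx58, Ifih1, Nod1 and Clec4n. Not all marker genes are reported here. Python 3.11.15 and limma 3.58.1 were used.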

Additional observations from a re-analysis of the deposited data

How the results depend on the processing

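Across 10 other settings, none of the members reached 2-fold in either direction and 2 stayed lower by more than 2 software errors, a limit added after the values were seen. Their median ran from −0.08 (each array's median as scale) to 0.16 (scaling on the 75th percentile of probes detected on both), while that of all genes ran from −0.19 to 0.05. Tlr6, Tlr12 and Tlr13 were below 0 in all 10. Tlr4 was above 0 in all 10, and the signs of Tlr1, Tlr2, Tlr3, Tlr7 and Tlr9 turned in 5, 1, 1, 4 and 2 of them. Among all genes, 352 were 2-fold higher and 310 lower. Normexp on spot medians gave 151 and 186 (44.8% higher against 53.2%), and counting probes whose signal was positive and significant gave 613 and 699. Scaling on each array's median gave 293 and 418 (41.2% higher), and on probes above background on both arrays 517 and 212 (70.9% higher). The planned normexp on spot means was not run, since the files used here give spot medians. Dim probes limit Tlr3, Tlr5 and Tlr8. Leaving out an array was not possible with 1 a group. No paired analysis was possible because each group has 1 array.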
